A study of Sus scrofa with 12 samples.

Results

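G protein-coupled receptors of the purine, chemokine and orphan type were examined in the annulus fibrosus, the ring of lamellar fibrocartilage around the nucleus of the intervertebral disc, in hyperloaded against control pigs. The members were taken by gene symbol: GPR with a number, ADGR (without ADGRE1), P2RY, CCR, CXCR, CX3CR, ACKR, ADRA, ADRB, S1PR, LPAR, F2R, HTR, EDNR and ADORA, each with at least 1 count in 6 or more of the 12 libraries. Of 22198 genes in the count table, 11700 carried a symbol, and 77 of these met the rule. Of the 77, 2 were HTRA serine proteases that only share the first letters with the serotonin receptors, and they were set apart, so that 75 receptors are counted. A further 37 symbols of the same form had counts in fewer than 6 libraries. Just inside that limit lay GPR33, with 12 counts in all hyperloaded and 14 in all control libraries, ADRA2C with 23 and 6, and S1PR4 with 6 and 9. Just outside it, with counts in 5 libraries, lay GPR179, GPR39, GPR65, P2RY10 and ADRA1A.

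These proteins cross the cell membrane repeatedly and pass a signal from outside to heterotrimeric G proteins inside. Chemokine receptors steer leukocytes along gradients of small secreted proteins, P2Y receptors bind nucleotides released by active or damaged cells, and adenosine receptors bind the nucleoside formed when those nucleotides are broken down. Adhesion receptors carry long extracellular parts that bind matrix or neighbouring cells, and lysophospholipid, protease-activated, endothelin, adrenergic and serotonin receptors answer to factors of blood, vessels and nerves. Many of the chemokine and purine receptors are best known from macrophages and other leukocytes, which are few in a healthy disc.

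The hyperloaded group held 6 libraries from 4 anaesthetised Duroc cross pigs aged 3 to 4 months, whose lumbar vertebra L3 was loaded by hand every 1 or 2 min for 4 h. The control group held 6 libraries from 6 such pigs that were anaesthetised and not loaded. RNA came from the ventral annulus below the loaded vertebra in both groups. Of the hyperloaded libraries, 2 were repeats powdered separately from pigs that also gave another library. The labels do not say which, so libraries of 1 pig stand as separate replicates here, which makes the p-values smaller than they should be.

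Sums per library ran from 12484228 to 19298415 counts in the hyperloaded and from 12519458 to 24897110 counts in the control group. Levels are given in CPM, counts per 1000000 counts of a library size scaled by the trimmed mean method. The tissue check showed cartilage and tendon transcripts in both groups, with a mean log2 CPM over 10 chondrocyte markers of 4.52 to 10.14 in hyperloaded and 8.81 to 11.63 in control libraries. Of 7 tendon and outer annulus markers tested, 4 were called higher and 0 lower, where 10.8% of all genes tested were called higher. These markers averaged 9.72 to 10.65 log2 CPM in hyperloaded and 7.18 to 9.62 in control libraries, and their part in the receptor results was not tested. Skeletal muscle transcripts stood out in hyperloaded replicates 2, 3 and 6, whose mean log2 CPM over 4 muscle markers was 12.22, 7.06 and 9.05, against at most 3.81 in the other hyperloaded and 4.54 in the control libraries. Macrophage and monocyte markers averaged 2.91 to 3.56 log2 CPM in the hyperloaded and 0.44 to 2.73 in the control libraries, and control replicate 1 held the highest control value. A higher level in these pieces of tissue can come from more cells of a type or from more RNA per cell, which cannot be told apart.

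Of the 75 receptors, 45 reached the count minimum (10 counts or more in all 6 libraries of either group), and 30 did not. The minimum lets in a low gene only through the group where it is high, so the counts that follow do not speak for the 75. Of the 45, 9 were higher in hyperloaded tissue at an adjusted p under 0.05 in edgeR's quasi-likelihood test, among them GPR183, CCR1, ADRA2A, P2RY12, ADORA3, ADGRE5, GPR34 and P2RY6. That is 20% of the receptors tested, where 10.8% of the 12597 genes tested were called higher. ADGRG5, LPAR5 and ADGRG6 were lower, 6.67% of the receptors against 8.44% of all genes. The remaining 33 passed in neither direction. Of those named as higher, GPR183, P2RY12, ADORA3, ADRA2A and P2RY6 reached the count minimum only through the hyperloaded libraries. LPAR5 reached it only through the control libraries. For these receptors the filter favoured the direction called. The median log2 fold change was 0.00 over the 45 and 0.00 over all genes tested. The study's own cut-offs were a raw p no higher than 0.01 with a 2-fold or larger difference, and by these 9 receptors were higher (5.89% of all genes) and 1 was lower (2.54% of all genes). All 6 hyperloaded libraries lay above all controls for 3 of the 45 (GPR183, CCR1 and P2RY12), where 3.81% of all genes did so, and below all controls for 1 (ADGRG5), where 2.98% did so.

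The calls rested on the hyperloaded libraries to different degrees. With upper quartile factors in place of trimmed means the split was 8 higher and 6 lower, and with library size only it was 9 and 1. Without hyperloaded replicates 2, 3 and 6 together, which leaves 3 libraries against 6, only GPR183 was called higher and 0 receptors lower, and 167 of 12698 genes were called in all. Without hyperloaded replicates 1 and 5 together, 12 were higher and 11 lower. Over the 15 ways to choose 4 of the 6 hyperloaded libraries, 4 to 12 receptors were higher and 0 to 11 lower. GPR183, CCR1, P2RY12 and ADRA2A were called in each of the 15, and P2RY6, GPR34 and ADGRG6 in 4 of the 15 each.

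**Figure D1:**
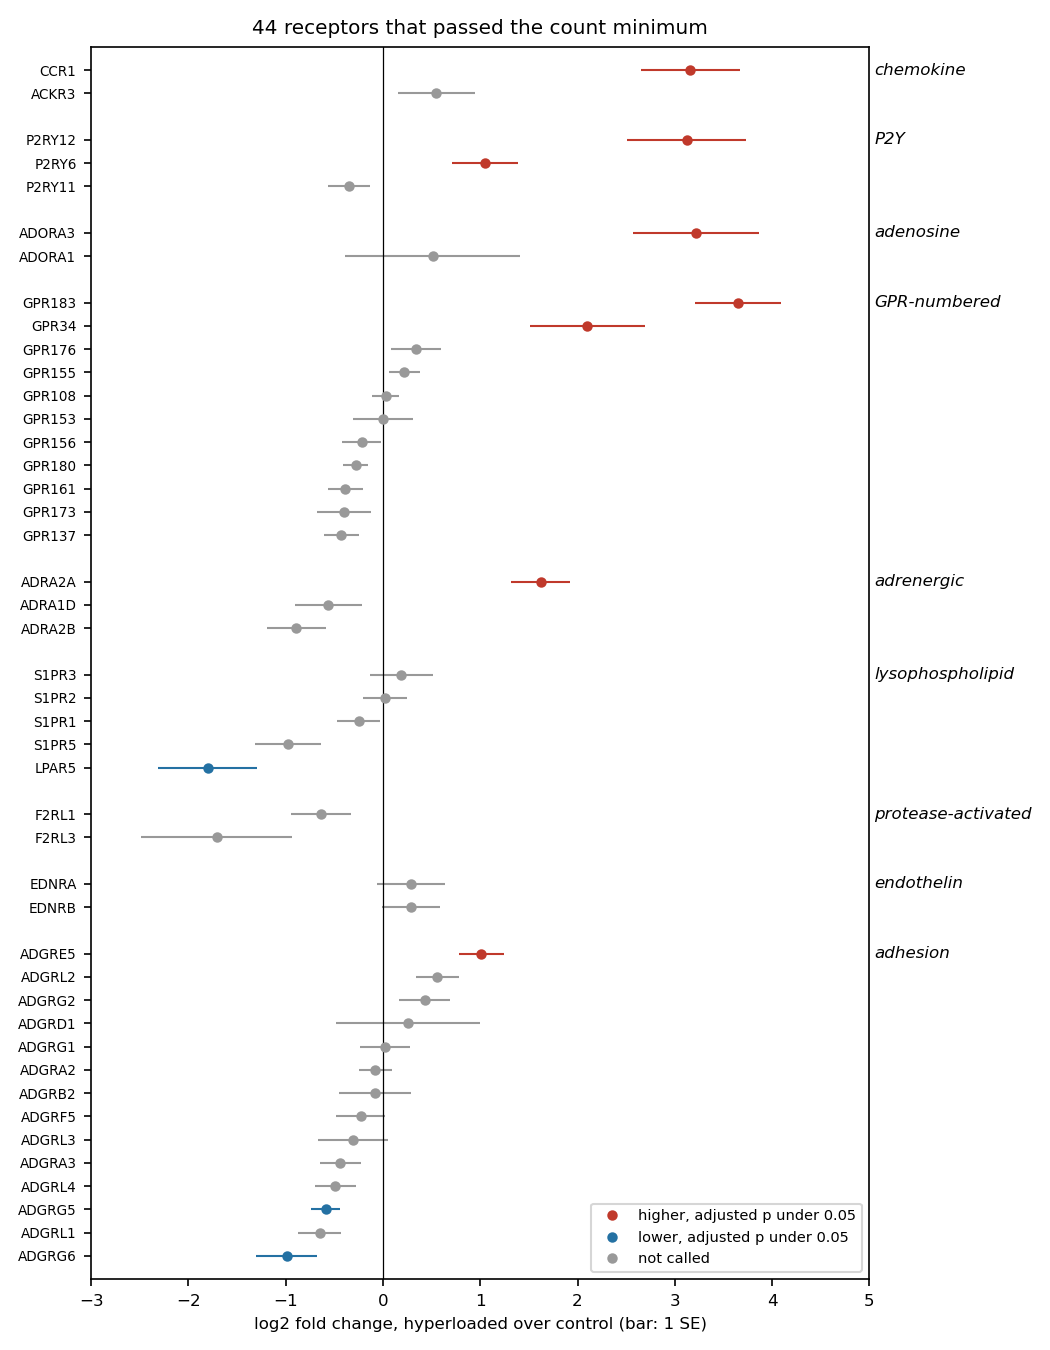
Log2 fold change, hyperloaded over control, of 44 of the 45 receptors that passed the count minimum, by family, with bars of 1 SE over 6 libraries in each group. Calls lie at the top of the chemokine, P2Y, adenosine, GPR-numbered and adrenergic groups, up to 3.65 for GPR183. The adhesion group holds 1 call above 0 and 2 below it, and the lysophospholipid group holds 1 below it (LPAR5).

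GPR183 rose most firmly of the 45. It is a receptor for oxysterols, oxidised forms of cholesterol that guide B cells, T cells, dendritic cells and macrophages through tissue. Its level was 6.71, 11.6 and 22.6 CPM (lowest, median and highest library) in hyperloaded tissue, against 0.226, 1.12 and 1.93 CPM in control tissue. The groups did not overlap, and the lowest hyperloaded library, replicate 5, was still above the highest control library, replicate 1. Its log2 fold change was 3.65 (SE 0.44, a fold of 12.5, adjusted p = 0.00226, n = 6 each by edgeR). It stayed between 3.43 and 3.95 with each library left out in turn.

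CCR1, a receptor for the chemokines CCL3 and CCL5 on monocytes and other leukocytes, rose next most firmly. Its level was 4.38, 12.7 and 27.9 CPM in hyperloaded libraries, against 0.566, 1.08 and 3.17 CPM in controls. Hyperloaded replicate 3 was the highest and replicate 5 the lowest of its group, and again no control reached them. In the edgeR fit its log2 fold change was 3.16 (SE 0.51, 8.95-fold, adjusted p = 0.00539 by edgeR).

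ACKR3, an atypical receptor that takes up CXCL12 without G protein signalling, had the highest level of any receptor per exon length, a mean of 201 CPM per kb in hyperloaded and 137 CPM per kb in control tissue. Its level of 194, 371 and 782 CPM in hyperloaded and 127, 305 and 430 CPM in control libraries did not pass the test (log2 fold change 0.55, SE 0.40, adjusted p = 0.331). So the most abundant receptor of the family was not among those called.

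CCR1 lies in a cluster of chemokine receptors on chromosome 13 of the pig genome build Sscrofa11.1. It occupies 29227218 to 29233862 on the minus strand. XCR1, the receptor of lymphotactin, overlaps CCR1 on the same strand and did not pass the test, with means of 1.12 CPM in hyperloaded and 0.996 CPM in control tissue (log2 fold change 0.15, SE 0.28, adjusted p = 0.721). CCRL2, of the same cluster, had 0.461 CPM in hyperloaded and 0.431 CPM in control tissue and was under the count minimum. CCR3, the eotaxin receptor, was also under it, with no count in 2 hyperloaded and 3 control libraries.

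P2RY12, the ADP receptor of platelets and of microglia, had 1.29, 2.86 and 5.29 CPM in hyperloaded and 0, 0.161 and 1.25 CPM in control libraries. The groups did not overlap, though control replicate 1 stood just below hyperloaded replicate 5, and the 5 other controls were at or below 0.267 CPM. Its log2 fold change was 3.12 (SE 0.61, 8.72-fold, adjusted p = 0.00891), and 4.36 without control replicate 1. Of 7 platelet markers listed, only 2 had a symbol match, GP1BB and GP6. They summed to 0.0457 to 0.344 CPM in hyperloaded and 0 to 0.484 CPM in control libraries. The other platelet markers were not measured, and the part of platelets in the P2RY12 value was not tested.

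P2RY6, the UDP receptor, had 0.858, 1.65 and 3.13 CPM in hyperloaded and 0.373, 0.896 and 1.03 CPM in control libraries. Hyperloaded replicates 4 and 5 fell inside the control range. In the edgeR fit its log2 fold change was 1.05 (SE 0.34, adjusted p = 0.0447), and the call was lost without any 1 of 10 libraries, all but hyperloaded replicates 4 and 5, at adjusted p between 0.0504 and 0.0926. P2RY11, an ATP receptor and the highest of the P2Y group per exon length, had 4.81, 5.23 and 6.08 CPM in hyperloaded and 3.93, 6.41 and 12.3 CPM in control libraries, and it did not pass the test (log2 fold change -0.35, SE 0.22, adjusted p = 0.266). P2RY14, the UDP-glucose receptor, lies beside P2RY12 on chromosome 13 and was under the count minimum, with 0.172 to 1.1 CPM in hyperloaded and 0.0533 to 0.415 CPM in control libraries.

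ADORA3, the adenosine A3 receptor, which lowers cyclic AMP, had 1.2, 5.31 and 9.81 CPM in hyperloaded and 0.113, 0.337 and 1.81 CPM in control libraries. Control replicate 1 lay above hyperloaded replicate 5, and all other controls were at or below 0.424 CPM. The log2 fold change was 3.22 (SE 0.65, 9.3-fold, adjusted p = 0.0103), and 4.22 without control replicate 1. ADORA3 overlaps TMIGD3 on the same strand, so reads of the shared part cannot be told apart. ADORA1, the A1 receptor, had 31.4 CPM in hyperloaded replicate 2 and 0.66 to 4.08 CPM in the other hyperloaded libraries, against 1.12 to 13.8 CPM in controls. Its log2 fold change of 0.51 (SE 0.90, adjusted p = 0.705) turned to -1.21 without hyperloaded replicate 2. MYBPH, a muscle gene on the opposite strand that overlaps ADORA1, had 96.6 CPM in that library and at most 5.81 CPM in any other, and its part in the ADORA1 value was not tested. ADORA2A was under the count minimum, at 0.258 to 1.87 CPM in hyperloaded and 0.182 to 1.17 CPM in control libraries.

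GPR34, a receptor for lysophosphatidylserine known from microglia and mast cells, had 7.93, 8.98 and 14.9 CPM in hyperloaded and 0.566, 1.06 and 8.83 CPM in control libraries. The hyperloaded values were close together, and of the controls only replicate 1 stood among them, while the other 5 were at or below 1.49 CPM. Its log2 fold change was 2.10 (SE 0.59, adjusted p = 0.028) and 3.34 without control replicate 1. The call was lost without hyperloaded replicate 4 and without control replicate 2, 3 or 4, at adjusted p of 0.0516, 0.0642, 0.057 and 0.0533.

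The other 9 numbered receptors that passed the count minimum were not called. GPR137, a lysosomal membrane protein, had 14.7, 23.6 and 28.8 CPM in hyperloaded and 26.5, 28.2 and 40.9 CPM in control libraries (log2 fold change -0.43, SE 0.18, adjusted p = 0.106). GPR161, which acts in the primary cilium on Hedgehog signalling, averaged 1.42 ± 0.267 CPM in hyperloaded and 1.86 ± 0.334 CPM in control tissue (SD, n = 6 each), with an adjusted p of 0.14 by edgeR. GPR180 had 13.3 to 18.4 CPM in hyperloaded and 15.8 to 22.4 CPM in control libraries (adjusted p = 0.14). The orphan receptor GPR153 had 11.4, 29.9 and 50.1 CPM in hyperloaded and 18.6, 31.5 and 44.7 CPM in control libraries, a log2 fold change of 0.00 (SE 0.31).

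ADRA2A, the alpha-2A receptor for noradrenaline, had 0.946, 2.37 and 3.19 CPM in hyperloaded and 0.48, 0.68 and 1.15 CPM in control libraries. Only hyperloaded replicate 5 lay within the control range, and the other 5 were at or above 2.22 CPM. In the edgeR fit its log2 fold change was 1.62 (SE 0.30, 3.08-fold, adjusted p = 0.00755), and the call held with each library left out in turn, at 1.51 to 1.77. ADRA2B, its alpha-2B relative, stood just outside the threshold in the other direction, with 1.05, 1.7 and 2.24 CPM in hyperloaded and 1.7, 2.98 and 5.15 CPM in control libraries (log2 fold change -0.89, SE 0.30, adjusted p = 0.0509). ADRA1D did not pass the test (log2 fold change -0.56, SE 0.34, adjusted p = 0.239), and ADRA1B and ADRA2C were under the count minimum.

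**Figure D2:**
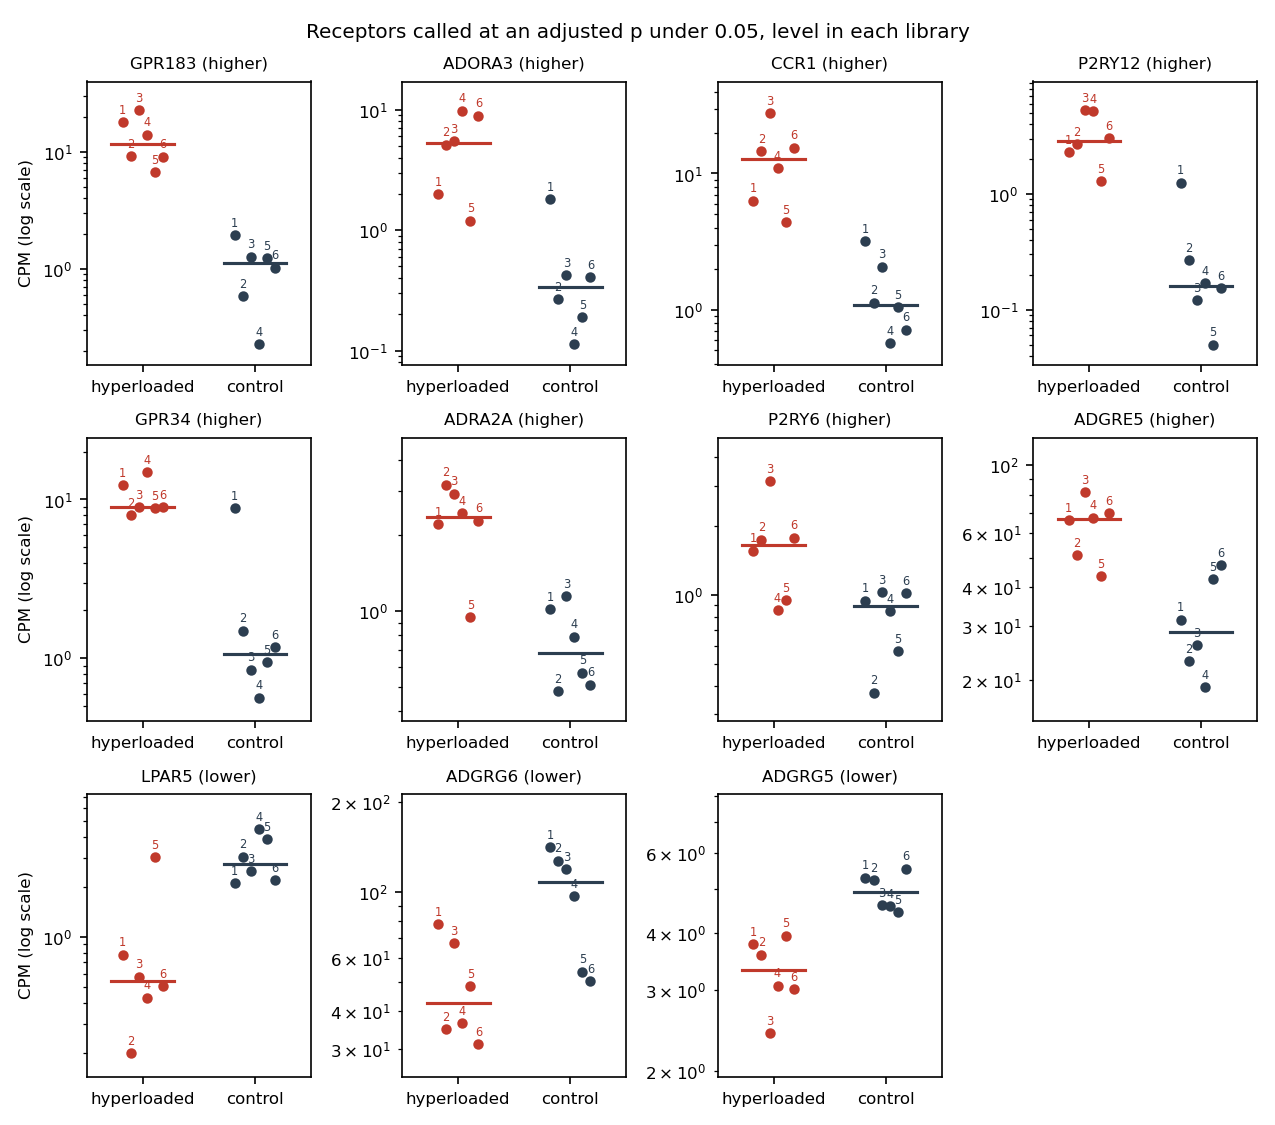
Level in each library, in CPM on a log axis, of 8 receptors called higher and the 3 called lower, with hyperloaded libraries left and control libraries right in each panel. Numbers give the replicate, lines the group medians, and a value of 0 (P2RY12 in control replicate 5) is drawn at 0.05. For GPR183, CCR1 and P2RY12 all hyperloaded points lie above all controls, and for ADGRG5 all lie below.

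The starts of 4 genes from those called higher are shown, picked after their values were seen, so that their upstream letters can be compared. Each line gives 250 bases before to 50 bases after the start of the RefSeq gene model (Sscrofa11.1), read 5' to 3' on the gene's own strand. GPR183 is at chr11:68248578-68248877 on the minus strand and CCR1 at chr13:29233813-29234112 on the minus strand. P2RY12 is at chr13:91572146-91572445 on the minus strand and ADORA3 at chr4:108854050-108854349 on the plus strand. Capitals mark GAGGAAG, read on either strand (CTTCCTC on the other), a core that binds the myeloid transcription factor PU.1.
GPR183: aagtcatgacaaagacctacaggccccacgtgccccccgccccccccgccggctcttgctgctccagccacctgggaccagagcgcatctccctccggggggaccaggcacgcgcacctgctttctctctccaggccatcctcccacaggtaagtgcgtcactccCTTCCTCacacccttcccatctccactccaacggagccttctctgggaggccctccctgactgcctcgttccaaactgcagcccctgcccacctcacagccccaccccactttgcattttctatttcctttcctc
ADORA3: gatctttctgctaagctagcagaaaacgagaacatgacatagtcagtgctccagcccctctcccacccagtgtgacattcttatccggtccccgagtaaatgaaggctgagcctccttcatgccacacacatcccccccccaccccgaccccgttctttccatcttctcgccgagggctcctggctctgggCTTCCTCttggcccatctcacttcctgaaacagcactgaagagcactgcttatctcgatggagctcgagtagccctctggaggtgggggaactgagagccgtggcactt
CCR1: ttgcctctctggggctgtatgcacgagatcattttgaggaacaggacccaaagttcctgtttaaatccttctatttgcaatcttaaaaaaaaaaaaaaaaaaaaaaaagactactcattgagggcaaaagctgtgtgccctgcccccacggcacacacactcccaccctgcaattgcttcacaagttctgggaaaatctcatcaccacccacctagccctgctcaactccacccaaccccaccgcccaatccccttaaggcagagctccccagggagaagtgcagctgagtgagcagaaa
P2RY12: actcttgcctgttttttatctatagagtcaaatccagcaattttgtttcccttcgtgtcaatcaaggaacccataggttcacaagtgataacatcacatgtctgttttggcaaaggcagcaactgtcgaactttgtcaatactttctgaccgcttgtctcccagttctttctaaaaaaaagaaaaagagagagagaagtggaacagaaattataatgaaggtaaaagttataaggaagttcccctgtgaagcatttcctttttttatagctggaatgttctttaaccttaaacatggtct

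The core began 85 bases before the start of GPR183 and 59 bases before that of ADORA3, and it was not among these letters of CCR1 and P2RY12. Over all called members, 3 of the 9 receptors called higher held it (33.3%; the other is ADRA2A), as did 0 of the 3 called lower. It stood in 16 of the 75 receptors (21.3%) and in 2375 of 19516 protein-coding genes with a window of this length (12.2%). The AP-1 motif TGANTCA, which reads the same on both strands and does not overlap the core, was in 0 of the 9 and 0 of the 3, in 5 of the 75 receptors (6.67%) and in 6.04% of all windows. A match describes letters and is not a binding site, and the starts used in annulus were not measured.

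ADGRE5, also called CD97, is a leukocyte adhesion receptor that binds CD55, and it was called higher. Its level was 43.5, 67.0 and 81.8 CPM in hyperloaded and 18.9, 28.7 and 47.2 CPM in control libraries, and per exon length it averaged 17.4 CPM per kb in hyperloaded and 8.67 CPM per kb in control tissue. Hyperloaded replicate 5 fell below control replicate 6, while the other 5 hyperloaded libraries lay above all controls. The log2 fold change was 1.01 (SE 0.23, adjusted p = 0.0143). DDX39A, an RNA helicase whose end overlaps ADGRE5 on the opposite strand, was also called higher, by a log2 fold change of 0.36 (SE 0.12, adjusted p = 0.0472).

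ADGRG6, a collagen IV and laminin receptor whose loss in mouse cartilage and connective tissue cells bends the spine, fell. It had 31.1, 42.4 and 77.9 CPM in hyperloaded and 50.4, 108 and 141 CPM in control libraries. Control replicates 5 and 6 lay within the hyperloaded range, and control replicates 1 to 4 were above it, at 96.5 CPM or more. Its log2 fold change was -0.99 (SE 0.31, adjusted p = 0.042). The call was lost without any 1 of 8 libraries, hyperloaded replicates 2, 4, 5 and 6 and control replicates 1 to 4, at adjusted p between 0.0504 and 0.0886. The mean log2 CPM over the chondrocyte markers was 7.25 ± 2.12 in hyperloaded and 10.0 ± 1.1 in control libraries (SD, n = 6 each). Of the 9 tested, 2 were called lower by edgeR, 4 by DESeq2 and 6 by voom, and 0 higher. Of all genes tested, 8.44% were called lower by edgeR. The part of the chondrocyte marker level in the ADGRG6 value was not tested.

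ADGRG5, an adhesion receptor of the same gene cluster as ADGRG1 and ADGRG3 on chromosome 6, was lower with no overlap. It had 2.42, 3.33 and 3.95 CPM in hyperloaded and 4.45, 4.91 and 5.54 CPM in control libraries, a log2 fold change of -0.59 (SE 0.15, adjusted p = 0.0201). This was the smallest change called, and scaling by library size only, which moved the median of all genes by 0.29, gave -0.32 (adjusted p = 0.273). Its neighbours did not pass the test or the minimum: ADGRG1 had a log2 fold change of 0.02 (SE 0.26), and ADGRG3 had 0.49 to 2.15 CPM in hyperloaded and 0.453 to 2.65 CPM in control libraries. CCDC102A, which overlaps ADGRG5 on the opposite strand, had means of 19.6 CPM in hyperloaded and 20.4 CPM in control tissue. It was not called (log2 fold change -0.06, SE 0.30, adjusted p = 0.898 by edgeR), and its part in the ADGRG5 value was not tested.

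Of the 14 adhesion receptors tested, 11 were not called by edgeR. The latrophilins pointed in both directions: ADGRL1 had 6.88, 12.6 and 17.8 CPM in hyperloaded and 15.6, 18.6 and 25.6 CPM in control libraries (log2 fold change -0.65, SE 0.22, adjusted p = 0.055), and DESeq2 and voom called it lower (adjusted p = 0.0319 and 0.038). ADGRL2 had 27.4, 46.0 and 55.3 CPM in hyperloaded and 21.4, 28.1 and 43.5 CPM in control libraries (log2 fold change 0.56, SE 0.22, adjusted p = 0.0882). ADGRL4, a receptor of vessel endothelium, had 10.9 to 21.5 CPM in hyperloaded and 12.0 to 28.4 CPM in control libraries (log2 fold change -0.49, SE 0.21, adjusted p = 0.112). Of 7 endothelial markers tested, 4 were called lower and 0 higher, where 8.44% of all genes tested were called lower. The mean log2 CPM of the 7 was 5.18 to 5.96 in hyperloaded and 5.55 to 6.23 in control libraries. ADGRA3 had a log2 fold change of -0.44 (SE 0.21, adjusted p = 0.152), and ADGRA2, the endothelial Wnt7 co-receptor and the highest adhesion receptor per exon length in control tissue, had -0.08 (SE 0.17, adjusted p = 0.763).

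LPAR5, a receptor for lysophosphatidic acid, had 0.199, 0.539 and 3.01 CPM in hyperloaded and 2.11, 2.76 and 4.47 CPM in control libraries. Hyperloaded replicate 5 stood within the control range, and the other 5 were at or below 0.78 CPM. In the edgeR fit its log2 fold change was -1.80 (SE 0.51, adjusted p = 0.0299) and -2.61 without hyperloaded replicate 5. The call was lost without hyperloaded replicate 3, 4 or 6 and without control replicate 2, 4 or 5, at adjusted p between 0.051 and 0.0692. Among receptors for sphingosine 1-phosphate, S1PR5 had 0.3, 0.79 and 1.15 CPM in hyperloaded and 0.907, 1.3 and 2.72 CPM in control libraries (log2 fold change -0.98, SE 0.34, adjusted p = 0.0613). The endothelial S1PR1, the highest of the lysophospholipid receptors per exon length, had 19.1, 23.9 and 44.6 CPM in hyperloaded and 21.2, 33.0 and 46.4 CPM in control libraries (log2 fold change -0.25, SE 0.22).

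The thrombin receptor F2RL3 had 0.137, 1.39 and 3.12 CPM in hyperloaded and 1.07, 3.54 and 10.2 CPM in control libraries and did not pass the test (log2 fold change -1.71, SE 0.78, adjusted p = 0.133). F2RL1, cleaved by trypsin-like proteases, had 2.1, 2.8 and 7.38 CPM in hyperloaded and 3.98, 5.39 and 8.31 CPM in control libraries (log2 fold change -0.64, SE 0.31, adjusted p = 0.157). The endothelin receptors EDNRA and EDNRB each had a log2 fold change of 0.29, with SE of 0.35 and 0.30.

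**Figure D3:**
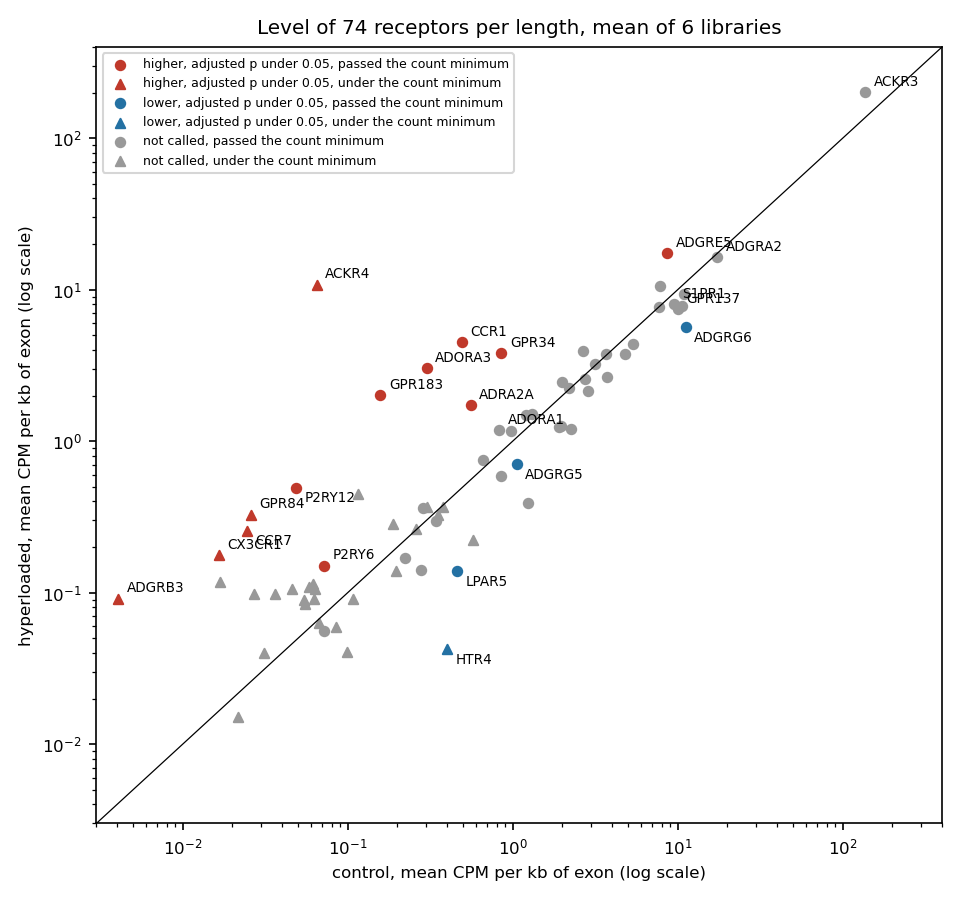
Mean level of 74 of the 75 receptors per exon length, in CPM per kb on log axes, in control (x axis) against hyperloaded tissue (y axis), 6 libraries each. Points on the line are equal in both groups, triangles are under the count minimum, and ACKR3 lies far above all others at 201 CPM per kb in hyperloaded tissue.

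The 30 receptors under the count minimum were fitted with no minimum, over 19019 genes, of which 7.53% were called higher and 4.85% lower. Of the 30, 5 were called higher and 1 lower by edgeR, and each of these 6 calls was lost without hyperloaded replicates 2, 3 and 6 together, at adjusted p between 0.0993 and 0.312. In that fit 13 of the 75 were higher and 3 lower in all. CX3CR1, the fractalkine receptor of monocytes, had 2 to 25 counts in hyperloaded and 0 to 2 counts in control libraries, with no overlap in CPM (log2 fold change 3.12, SE 0.66, adjusted p = 0.0156). GPR84, a receptor for medium-chain fatty acids induced in activated macrophages, had 3 to 30 counts in hyperloaded and 0 to 2 in control libraries, again with no overlap in CPM. Its log2 fold change of 3.51 (SE 0.81, adjusted p = 0.0198) became 2.71 without hyperloaded replicate 3, and the call was lost without hyperloaded replicates 1 and 3 and control replicate 6 together (2.53, adjusted p = 0.0578).

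ACKR4, an atypical receptor that removes CCL19, CCL21 and CCL25, had 71, 18.2, 4.53, 3.43, 0.602 and 0.06 CPM in hyperloaded replicates 6, 2, 3, 4, 5 and 1, against 0 to 0.254 CPM in controls. Replicate 1 stood among the controls. The log2 fold change of 7.23 (SE 1.48, adjusted p = 0.0149) became 5.63 without hyperloaded replicate 6, and the call was lost by voom (5.40, adjusted p = 0.0951) and without hyperloaded replicates 2, 3 and 6 together (3.68, adjusted p = 0.114). Of the 4 replicates highest in ACKR4, 6, 2 and 3 were also high in muscle markers, and replicate 4, at 3.81, lay below the control maximum of 4.54. All 4 were high in adipocyte markers: the mean log2 CPM of 3 adipocyte markers was 4.89, 5.21, 3.58, 4.33, 0.31 and -0.76 in the same order of replicates, and -1.28 to 0.91 in controls. The part of that tissue in the ACKR4 value was not tested. ADGRB3, an adhesion receptor of brain that binds C1q-like proteins, had 28 and 33 counts in hyperloaded replicates 2 and 6, 0 to 8 in the other hyperloaded libraries and 0 to 2 in controls (log2 fold change 4.02, SE 0.99, adjusted p = 0.0236). Its call was lost without hyperloaded replicate 6 and without control replicate 2, 3 or 4, at adjusted p between 0.0526 and 0.0568.

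CCR7, which guides dendritic cells and T cells to lymph nodes along CCL19 and CCL21, had 2 to 22 counts in hyperloaded and 0 to 4 counts in control libraries (log2 fold change 3.18, SE 0.82, adjusted p = 0.0263). The value was 4.24 without control replicate 6, and the call was lost without hyperloaded replicate 6 and without control replicate 2 or 3, at adjusted p of 0.064, 0.0603 and 0.0548. HTR4, a serotonin receptor that raises cyclic AMP, was the 1 called lower, with 0 to 3 counts in hyperloaded and 0 to 24 counts in control libraries (log2 fold change -3.11, SE 0.94, adjusted p = 0.0464). That call was lost without any 1 of 9 libraries, all but hyperloaded replicate 3 and control replicates 5 and 6, and with scaling by library size only (-2.89, adjusted p = 0.0614). Without hyperloaded replicate 3 the value was -4.02, and without control replicate 3 it was -2.38 (adjusted p = 0.115). HTR7, another serotonin receptor that raises cyclic AMP, had 5 to 64 counts in hyperloaded and 0 to 28 in control libraries (log2 fold change 1.86, SE 0.66, adjusted p = 0.0771 by edgeR), and DESeq2 and voom called it higher (adjusted p = 0.0236 and 0.0418). CCR10, a receptor of CCL27 and CCL28, had 1 to 6 counts in hyperloaded and 9 to 14 in control libraries (log2 fold change -1.35, SE 0.43, adjusted p = 0.0569 by edgeR), and DESeq2 called it lower (adjusted p = 0.0303). In the edgeR fit with no minimum, CCR10 also met the study's own cut-offs as lower.

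**Figure D4:**
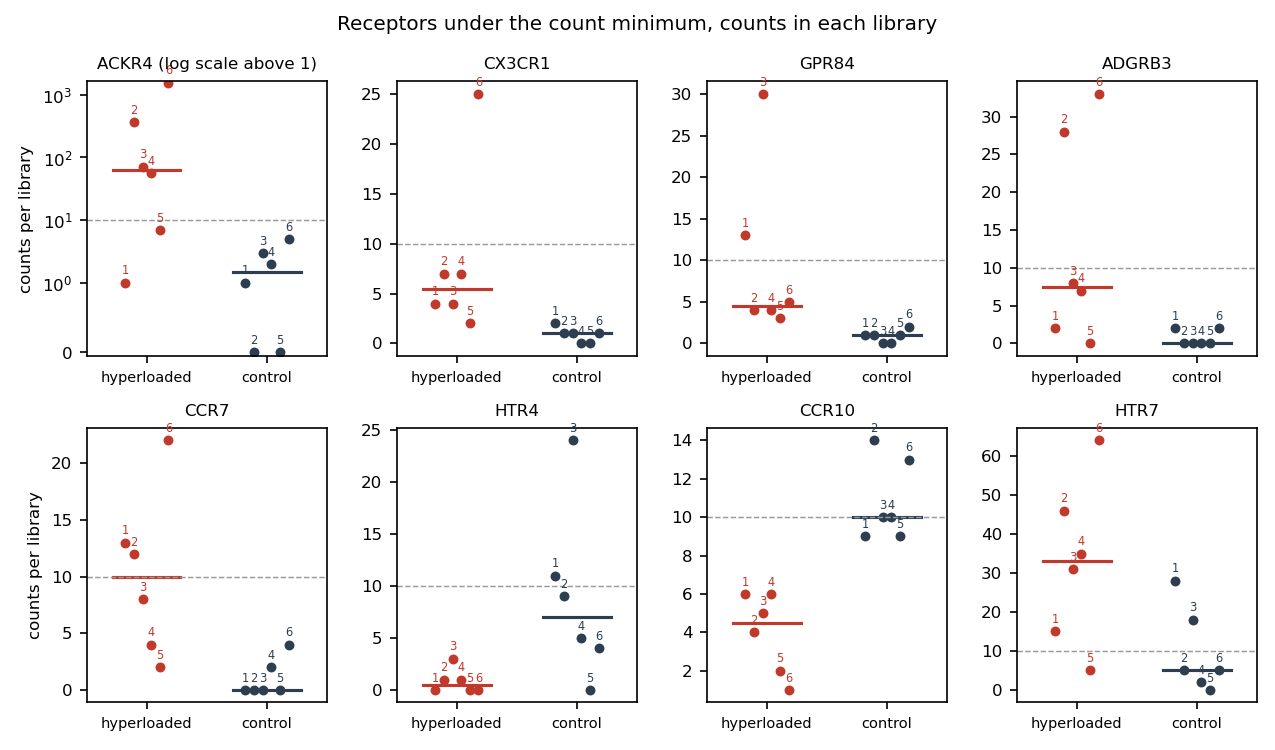
Counts in each library of the 8 receptors under the count minimum with the smallest p, hyperloaded left and control right, with numbers for replicates, lines for medians and the minimum of 10 counts dashed. ACKR4 is on a log axis above 1 count, and its highest library is hyperloaded replicate 6.

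ACKR1, the atypical receptor of venules and red cells that binds many chemokines, has no symbol in the gene name table and is outside all counts above. Its name was found only in a list that the study chose on these same libraries, so its direction is not independent. It had 75.5, 81.6, 68.1, 45.9, 25.9 and 1.55 CPM in hyperloaded replicates 2, 3, 6, 4, 1 and 5, against 0.568 to 11.4 CPM in controls (log2 fold change 3.85, SE 0.84, adjusted p = 0.0124). Hyperloaded replicate 5 was again the low one.

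Several of the receptors called lie inside other genes on the opposite strand, and whether the counting used strand is not given in the sources used here. GPR183 is on chromosome 11 at 68231851 to 68248627, within UBAC2, whose level was 8.75 ± 1.18 CPM in hyperloaded and 9.87 ± 1.28 CPM in control tissue (log2 fold change -0.17, adjusted p = 0.351). P2RY12 is on chromosome 13 at 91522754 to 91572195, within MED12L, which had 0.282 CPM in hyperloaded and 0.128 CPM in control tissue and was under the count minimum. GPR34 is on chromosome X at 37306490 to 37313626, within CASK, with means of 73.7 CPM in hyperloaded and 59.6 CPM in control tissue (log2 fold change 0.31, adjusted p = 0.29). None of these 3 host genes was called in its fit.

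Of 22 macrophage and monocyte markers listed, 16 had a symbol match and 14 were tested. Of the 14, 11 were called higher and 0 lower, where 10.8% of all genes tested were called higher. Among the called ones, TYROBP, FCER1G and MSR1 reached the count minimum only through the hyperloaded libraries. The 16 matched markers summed to 235 to 412 CPM in hyperloaded and 46.6 to 235 CPM in control libraries. No matched marker was at 0 in all libraries of a group. The same library stood at the edge in both: control replicate 1 was the highest control for 6 of the 9 receptors called higher, and hyperloaded replicate 5 the lowest hyperloaded library for 7 of them. These were also the libraries of the 2 groups nearest to each other in mean log2 CPM of the macrophage list, at 2.91 in hyperloaded replicate 5 and 2.73 in control replicate 1. Of the 9 receptors called higher, 6 were higher in hyperloaded replicate 5 than in control replicate 1 and 3 were lower. GPR183 had 6.71 CPM in hyperloaded replicate 5 and 1.93 CPM in control replicate 1, the widest gap of the 9 as a ratio. CCR1 had 4.38 CPM in hyperloaded replicate 5 and 3.17 CPM in control replicate 1. GPR34 had 8.85 CPM in the hyperloaded and 8.83 CPM in the control library, P2RY12 had 1.29 CPM in the hyperloaded and 1.25 CPM in the control library, and ADORA3 had 1.2 CPM in the hyperloaded and 1.81 CPM in the control library. This pair was picked after the values were seen and is 1 library of each group, so it carries no test, and the part of macrophage content in the receptor calls was not tested.

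**Figure D5:**
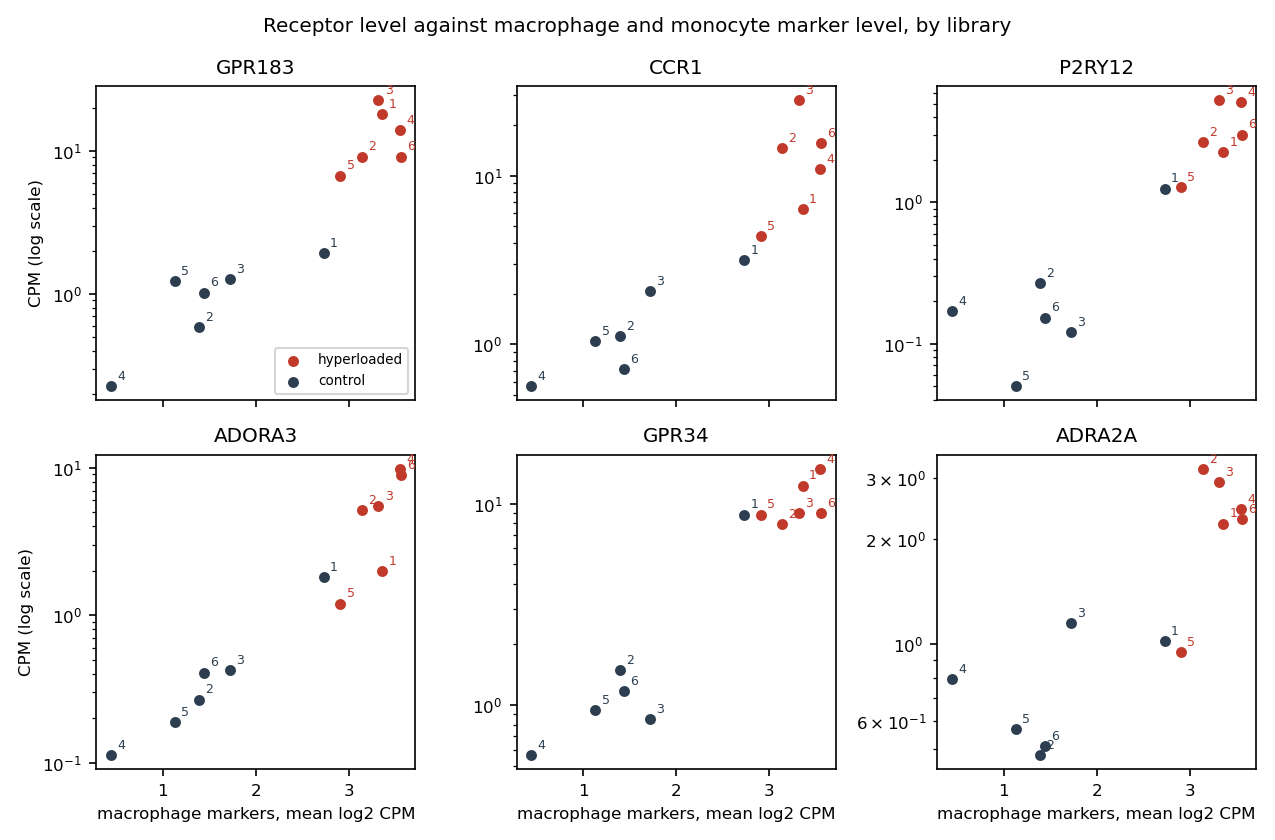
Level of 6 receptors in CPM on a log axis against the mean log2 CPM of 16 macrophage and monocyte markers, with hyperloaded libraries in red and control libraries in dark blue, numbered by replicate. Control replicate 1, at 2.73 on the marker axis, lies beside hyperloaded replicate 5, at 2.91, and close to it for GPR34 and P2RY12 but below it for GPR183.

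Other leukocyte lists were sparse. Of 4 T and NK cell markers tested, 2 were higher (CD247 and NKG7) and 0 lower, where 10.8% of all genes tested were called higher. CD247 and NKG7 reached the count minimum only through the hyperloaded libraries, so the filter favoured that direction for them. The 9 measured members of the list summed to 10.3 to 16.1 CPM in hyperloaded and 2.6 to 7.36 CPM in control libraries. No B cell marker passed the count minimum. Of 5 measured neutrophil markers CSF3R alone was tested, at means of 3.12 CPM in hyperloaded and 0.566 CPM in control tissue (log2 fold change 2.51, SE 0.96, adjusted p = 0.0789 by edgeR), and voom called it higher. CD177 was at 0 in all libraries of both groups, and S100A8, MPO and ELANE had at most 24 counts in any library and were not tested.

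Genes that make or remove the ligands moved unevenly. Of 29 chemokines listed, 12 had a symbol match and 7 were tested. All 7 were called higher, where 10.8% of all genes tested were. CCL3L1 and CXCL8 reached the count minimum only through the hyperloaded libraries, so the filter favoured that direction for them. CCL2 had a mean of 59.4 CPM in hyperloaded and 2.35 CPM in control tissue (log2 fold change 4.69, SE 0.50, adjusted p = 0.00145). CCL3L1, a ligand of CCR1, had 2.64 CPM in hyperloaded and 0.238 CPM in control tissue (log2 fold change 3.41, SE 0.43, adjusted p = 0.00249). CXCL14 and CXCL2 were higher by log2 fold changes of 2.27 and 2.30. Of 12 tested genes of nucleotide and adenosine handling, 0 were called by edgeR, where 4 had an unadjusted p under 0.05, and DESeq2 and voom each called 1 of them lower. The nearest was P2RX7, an ATP-gated channel, at 3.5 CPM in hyperloaded and 5.08 CPM in control tissue (log2 fold change -0.54, SE 0.18, adjusted p = 0.0519). NT5E, the ectoenzyme that makes adenosine, had 102 CPM in hyperloaded and 219 CPM in control tissue (log2 fold change -1.11, SE 0.48, adjusted p = 0.116). ENTPD1, which degrades ATP and ADP, had a log2 fold change of -0.59 (SE 0.25, adjusted p = 0.105), and the channel P2RX5 had 1.97 (SE 0.89, adjusted p = 0.13). P2RX5 had 440 and 176 counts in hyperloaded replicates 2 and 6 and 6 to 13 counts in the other hyperloaded libraries, against 14 to 46 counts in controls.

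CH25H, the oxysterol enzyme upstream of the GPR183 ligand and the 1 tested of its list, had 2.1 CPM in hyperloaded and 1.77 CPM in control tissue (log2 fold change 0.24, SE 0.28, adjusted p = 0.559). Of 10 tested genes of lysophospholipid handling edgeR called 1 and DESeq2 called 2, all higher. The 1 called by edgeR was PLPP3, a phosphatase that inactivates lysophosphatidic acid, at 238 CPM in hyperloaded and 101 CPM in control tissue (log2 fold change 1.24, SE 0.34, adjusted p = 0.0256). SPHK1, which makes sphingosine 1-phosphate, had a log2 fold change of 0.73 (SE 0.26, adjusted p = 0.0628). Of 3 tested proteases of the protease-activated receptors and their partners, edgeR called 1 higher and DESeq2 called 2 higher. By edgeR it was urokinase PLAU, at 88.8 CPM in hyperloaded and 19 CPM in control tissue (log2 fold change 2.22, SE 0.38, adjusted p = 0.00594). F3 had a log2 fold change of 1.91 (SE 0.70, adjusted p = 0.0697 by edgeR). The endothelin-converting enzyme ECE1 had a log2 fold change of -0.56 (SE 0.20, adjusted p = 0.0656 by edgeR), and DESeq2 called it lower.

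The genes behind the receptors are read against the 10.8% of all tested genes called higher and the 8.44% called lower. Of 6 tested G alpha subunits, 2 were higher and 0 lower. GNA15, the promiscuous subunit of blood cells, had 2.77 CPM in hyperloaded and 0.726 CPM in control tissue (log2 fold change 1.84, SE 0.46, adjusted p = 0.0185), and GNAI1 had 12.7 CPM in hyperloaded and 7.39 CPM in control tissue (0.78, SE 0.23, adjusted p = 0.0349). Of 4 tested RGS proteins, which end the G protein signal, RGS16 was higher (log2 fold change 1.26, SE 0.37, adjusted p = 0.0343) and RGS12 lower (-0.77, SE 0.15, adjusted p = 0.00994). Of 9 receptor kinases and arrestins, 3 were higher and 0 lower: ARRB2, which uncouples and internalises receptors, and the arrestin-domain genes ARRDC3 and ARRDC4, at log2 fold changes of 0.77, 1.05 and 1.28, where voom called 2 higher. Of 12 adenylyl cyclases and phosphodiesterases, ADCY5 (1.54) and PDE3B (1.66) were higher and ADCY6 (-0.52) was lower, where voom called 1 higher and 1 lower. Of 9 genes of the phospholipase C route, PLCB2, PLCB4 and the leukocyte kinase subunit PIK3CG were higher by log2 fold changes of 0.91, 1.29 and 1.75. By edgeR 0 of the 9 were lower, where DESeq2 called 1 lower. GNA15 and PIK3CG reached the count minimum only through the hyperloaded libraries, so the filter favoured that direction for them.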

How the data were processed

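Ribonucleic acid of ventral annulus wedges was sequenced in 12 libraries, 6 hyperloaded and 6 control. Alignment by the authors was to Sscrofa11.1 with JMP Genomics. The deposited table holds expected counts, not normalized, of 22198 genes in 12 library columns. Such counting divides ambiguous reads among genes, so near-identical genes are uncertain, and strand use in counting is not given in the sources used here. Symbols came from a gene name table that matched 52.7% of the identifiers, and positions from RefSeq, matched by symbol, which placed all 75 receptors.

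Counts were rounded. Genes with 10 or more counts in all 6 libraries of either group were compared by the quasi-likelihood test of edgeR 4.0.16 (R 4.3.3), with trimmed mean (TMM) scaling, no covariate, 2-sided p and Benjamini-Hochberg adjustment over all genes tested. SE came from the F statistic, log2 CPM used a prior count of 2, and list levels are means of it. Members and lists were chosen with earlier results of these data known. The text names every receptor called but 1, which is in the counts and not reported here, the 10 uncalled ones with the smallest p, the one with the highest mean CPM in each family, the 8 under the minimum with the smallest p, the 4 markers GPR183, CCR1, P2RY12 and ADRA2A, and up to 4 genes of each pathway list. Others are named for position or for a limit and were chosen after their values were seen.

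On simulated counts, 4 of 65 genes changed 1.5-fold, 28 of 66 changed 2-fold and 57 of 63 changed 4-fold were recovered in a fit of 12281 genes. The changed genes were drawn above a floor of expected counts, and the libraries were simulated as independent. These rates therefore do not speak for receptors of low count or for repeats from the same pig. Within each group no 2 libraries differed by less than the sampling noise, and pairs across groups were not compared. The closest hyperloaded pair was replicates 1 and 5 (r = 0.9618 of log2 CPM). Repeats powdered separately can differ by more than this noise, so the check cannot show which libraries share a pig. Alternatives were other scalings and filters, DESeq2 1.42.0, voom of limma 3.58.1, the replicate number as a block, the thresholds of the study and libraries left out. Plots used Python 3.11.15 and matplotlib 3.10.9.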

Additional observations from a re-analysis of the deposited data

Results flagged for a closer look

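Among 74 groups of 6 libraries examined (37 receptors named by the rule, in each group), 2 held a library far from the other 5 on the log2 CPM scale, where chance gives about 1 in 20 groups. ADRA2A in hyperloaded replicate 5, at 0.946 CPM, was the lowest of its group, and its gap to the next library was 0.695 of the whole range. GPR34 in control replicate 1, at 8.83 CPM, was the highest of its group, with a gap of 0.666 of the range.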

How the results depend on the processing

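The count of receptors higher (9) was 13 over the 75 with no count minimum, 1 without hyperloaded replicates 2, 3 and 6 together and 4 to 12 over the 15 choices of 4 hyperloaded libraries, and 7 to 11 with 1 library left out in turn. The count lower (3) was less stable. It was 6 with upper quartile factors, 1 by library size only, 6 by DESeq2 and 1 at the thresholds of the study. It was 0 without hyperloaded replicates 2, 3 and 6, 11 without hyperloaded replicates 1 and 5, and 1 without hyperloaded replicates 1 and 3 and control replicate 6 together. It was 0 to 11 over the 15 choices and 1 to 6 with 1 library left out. The labels do not say that the replicate numbers pair the libraries. The correlation of same-numbered deviations was -0.121 to 0.263, and 3 of 6 hyperloaded libraries correlated best with their own number. Whether the numbers carry a pairing was not tested. With the replicate block 8 receptors were higher and 4 lower, and GPR84, under the count minimum, was no longer called (3.15, adjusted p = 0.0579).

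Of the named receptors, 31 kept their direction throughout. The values that turned were all uncalled. ADORA1 (0.51) was -0.18 by voom, -0.17 with the replicate block, -2.12 without hyperloaded replicates 2, 3 and 6, -1.57 at the lowest choice of 4 and -1.21 to 1.15 with 1 library left out. ADGRA2 (-0.08) was 0.19 by library size only, 0.11 without those 3 libraries, 0.06 at the highest choice of 4 and -0.16 to 0.00 with 1 library left out. GPR153 (0.00) was 0.01 with DESeq2 size factors, 0.01 by DESeq2, 0.26 by library size only, 0.37 without the 3 libraries, 0.25 at the highest choice of 4 and -0.18 to 0.17 with 1 library left out. EDNRA (0.29) was -0.07 without the 3 libraries, -0.10 without hyperloaded replicates 1 and 3 and control replicate 6, -0.14 at the lowest choice of 4 and -0.01 to 0.51 with 1 library left out. ACKR3 (0.55) was -0.04 at the lowest choice of 4, and GPR180 (-0.28) was 0.01 by library size only. The causes were not tested. Changes of 1.5-fold were seldom recovered in simulation.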
